A study of Homo sapiens with 5 samples.

Results

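The contacts that fall within a 1 Mb stretch of chromosome were followed as a share of all contacts of that stretch. In a Hi-C matrix binned at 1 Mb these contacts lie on the diagonal, where a bin meets itself. For each bin of chromosomes 1 to 22 the diagonal value was divided by the sum of the bin's row, which holds its contacts with itself, with other bins of its chromosome (cis) and with other chromosomes (trans). The members were the 2667 bins measured in all 5 libraries, of 2894 autosomal bins listed and 2680 measured in at least 1 library. Over all chromosomes the libraries held between 2818 and 2823 measured bins. Membership used no value of the share.

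Hi-C joins pieces of DNA that lie close together in the nucleus and counts the junctions, so nearby pieces of a chromosome meet far more often than distant ones. The contacts within a bin are those over the shortest distances, which the local folding of the chromatin fibre, loops and domains feed most. Contacts with other chromosomes reach high levels in regions at the surface of a chromosome territory and in open, gene-rich chromatin. ARID1A is the DNA-binding subunit of the BAF (SWI/SNF) chromatin remodelling complex and is often lost in ovarian clear cell carcinoma. CAPH2 (NCAPH2) is the kleisin of condensin II, an SMC complex that extrudes loops, compacts chromosomes and helps to keep their territories apart.

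In situ Hi-C was measured in RMG1 cells, an established line of human ovarian clear cell carcinoma. The control was 1 library with a control hairpin, with ARID1A and CAPH2 wild type. The ARID1A KO group held 2 libraries of cells edited by CRISPR, with CAPH2 wild type, and the CAPH2 KD group held 2 libraries of cells with a hairpin against CAPH2, with ARID1A wild type. The comparisons address how loss of ARID1A and loss of condensin II move chromosome contacts. The labels do not say whether the replicates were separate cultures or whether the edited cells were 1 clone, so the p-values cover the spread among these libraries alone, which may be technical. The labels give a hairpin for the control and the KD libraries and none for the KO libraries, so in the comparison of KO and control the hairpin and the edit cannot be told apart. Contacts binned at 1 Mb hold no check of either targeted gene's level.

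The deposited values are signal balanced so that every autosomal row of a library sums to the same total within 0.1%. Contacts before balancing were recovered from the values (in units of 1000000, 47.9 in the control, 31.4 and 32.5 in the KO and 55.7 and 85.0 in the KD libraries), and the main results below are given for balanced signal and for these contacts. Between bins, 98.2% to 99.2% of the recovered values lay within 0.05 of a whole number. Within bins they came in steps of 0.5, so the level of the share depends on how a contact of a bin with itself was entered, which is not given in the sources used here. Counting the within-bin signal 2 times would add the same constant to every bin's log2 ratio of within-bin to other signal and so change no test below. The median bin held 7666 within-bin contacts in the control, 5223 and 5728 in the KO and 8858 and 13766 in the KD libraries, and the lowest bin of any library held 147.

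Both KO libraries held more of the whole autosomal signal within bins than the control and both KD libraries did. It was 29.1% in the control, 31.0% and 34.3% in the KO libraries (32.6% ± 2.38, SD, n = 2) and 29.2% and 29.7% in the KD libraries (29.4% ± 0.362, SD, n = 2). The KO libraries lay above all others but differed from each other by more than the lower of them differed from the control. The KO mean was 3.49 percentage points above the control and the KD mean 0.302 points above it, the latter less than the SD of the KD libraries. Between the KO and KD libraries the difference was 3.19 points (exact permutation test, two-sided, p = 0.333, the smallest p that 2 against 2 libraries allow). In contacts before balancing the shares were 28.7% in the control, 31.5% and 34.8% in the KO and 28.6% and 29.2% in the KD libraries, with the control now above KD replicate 1. The 95% interval of the control's share was 28.68% to 28.70% (Clopper-Pearson), with the summed rows taken as independent trials. A contact between 2 autosomal bins enters those rows 2 times, and reads without molecular identifiers are not independent molecules. The interval is therefore only a rough guide to counting error, and it covers no spread between libraries.

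**Figure D1:**
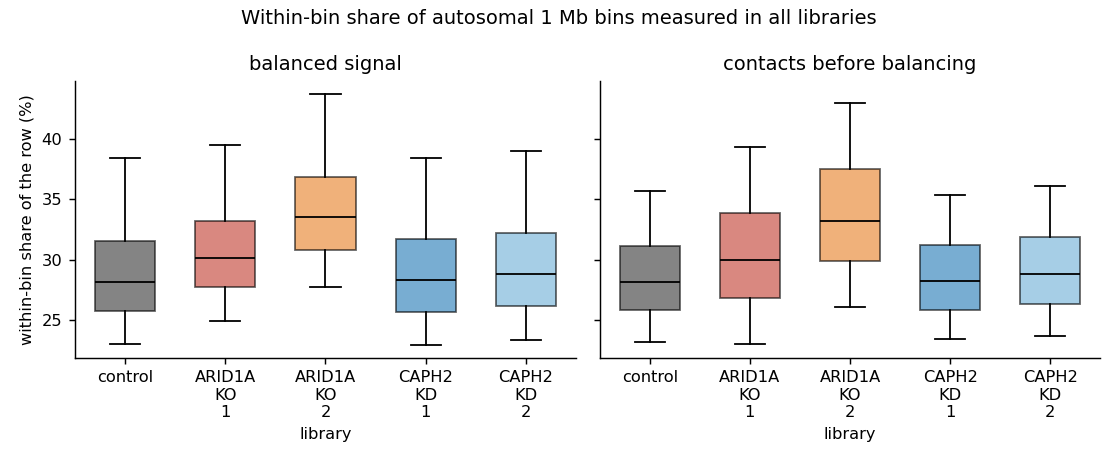
Within-bin share (percent of the bin's row) of the 2667 bins in each library, for balanced signal (left) and contacts before balancing (right). Boxes span the quartiles with the median as a line, and whiskers reach the 5th and 95th percentiles; the balanced medians are 28.2% in the control, 30.2% and 33.5% in the KO libraries and 28.3% and 28.8% in the KD libraries.

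Where the KO rows held more signal within bins, they held less in cis contacts beyond the 2 neighbouring bins and in trans. Cis contacts beyond the neighbours took 23.2% of the row in the control, 22.4% and 19.7% in the KO and 21.6% and 21.4% in the KD libraries. Trans signal took 29.96% in the control, 28.8% and 28.7% in the KO and 31.8% and 31.6% in the KD libraries, so it was below the control in both KO and above it in both KD libraries. The 2 neighbouring bins took between 17.2% and 17.8% in every library. Before balancing the trans share of the KO libraries lay closer to the control (29.5% in both against 29.8%, with 31.5% and 31.4% in the KD libraries). Cis contacts beyond the neighbours then took 23.6% in the control, 21.6% and 18.9% in the KO and 22.3% and 21.97% in the KD libraries, and the neighbours 16.9% to 17.9%. Relative to the mean signal with its neighbours, the within-bin signal of the median bin was 3.11-fold in the control, 3.32-fold and 3.81-fold in the KO and 3.17-fold and 3.26-fold in the KD libraries. When trans signal was left out of the row, the within-bin share was 41.6% in the control, 43.5% and 48.2% in the KO and 42.8% and 43.5% in the KD libraries.

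Bin by bin, the share was above the control in both KO libraries in 2406 of 2667 bins (90.2%) and below it in both in 1 bin (0.0375%). For the KD libraries it was above in both in 1379 bins (51.7%) and below in both in 351 (13.2%). The KO libraries both lay above the KD libraries in 2048 bins (76.8%). Before balancing both KO libraries lay above the control in 2162 bins (81.1%) and below it in 6 (0.225%), both KD libraries in 1352 (50.7%) and 326 (12.2%), and the KO above the KD libraries in 1914 (71.8%). These counts do not separate a bin from the shift of its whole library. Between replicates a bin's log2 ratio moved by a median of 0.229 in the KO and by 0.037 in the KD.

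The shift between the KO replicates set the error of the test. In limma's fit the log2 ratio of within-bin to other signal was tested over the 2667 bins, with Benjamini-Hochberg adjustment at 0.05. The prior on the variance was so firm (infinite prior degrees of freedom) that every bin had the same SE of 0.151 against the control. Each p took this SE as known without error, although it rested on a shift between replicates that all bins share. The p-values of the bin share can therefore overstate the evidence. At that error 5 bins (0.187% of those tested) rose in the KO and 0 fell, with 674 bins under an unadjusted p of 0.05. The count rested on the spread between the KO replicates: 2653 bins passed without KO replicate 1, 1447 without KO replicate 2 and 0 without either KD library. In contacts before balancing 53 bins (1.99%) rose and 0 fell, 2 of them among the 5. In the KD against the control 0 bins rose and 1 fell (0.0375%), with 4 under an unadjusted p of 0.05, and before balancing 0 bins passed in either direction, with 1 under it. The same SE of 0.151 applied to the balanced KD values, although the KD replicates shifted by a median of only 0.037. The small KD counts therefore do not show that its bins were unchanged. The fits of relative values and of chromosomes below pool the KO and KD replicates too. Between KO and KD 212 bins (7.95%) were higher in the KO and 0 lower. Before balancing 710 (26.6%) were higher, and 59 bins passed in both. The 212 became 2650 without KO replicate 1, 1375 without KO replicate 2, 2 without KD replicate 1 and 3 without KD replicate 2, and 905 with the replicate number as a block.

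To ask which bins moved more or less than their library, each library's median log2 ratio was taken off. Both KO libraries then lay above the control in 836 bins (31.3%) and below it in 1163 (43.6%), and both KD libraries in 846 (31.7%) and 1165 (43.7%), so that in balanced signal these counts were alike for the 2 groups. Before balancing they were 1124 (42.1%) and 1114 (41.8%) for the KO and 897 (33.6%) and 1045 (39.2%) for the KD libraries. In these relative values 0 bins passed in the KO against the control (615 under an unadjusted p of 0.05, smallest adjusted p of limma 0.102), and 0 in the KD against the control (40 under it, smallest adjusted p 0.796). Between KO and KD 114 bins (4.27%) were higher in the KO and 145 (5.44%) lower, 259 in all. These became 1421 without KO replicate 1, 1653 without KO replicate 2 and 0 without either KD library or with the replicate number as a block, and the KO against the control became 1090 and 1407 without KO replicate 1 and 2. The KD against the control became 19 without either KO library. The contacts before balancing gave far more calls, with 416 bins (15.6%) higher and 419 (15.7%) lower in the KO against the control, 669 (25.1%) higher and 622 (23.3%) lower against the KD, and 0 bins in the KD against the control (43 under an unadjusted p of 0.05). Of the 114 and 145 bins called between KO and KD in balanced signal, 28 and 43 were called in the same direction before balancing, and 65 and 81 had the same sign there.

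Of the 5 bins that rose in level in the KO against the control, 4 lay at a chromosome end or next to bins not measured in all libraries. Among these, the last measured bin of chromosome 14 (chr14:107000001-108000000, hg19) held 33.9% in the control, 43.1% and 48.0% in the KO and 36.8% and 37.0% in the KD libraries. The log2 change against the control was 0.71 ± 0.15 SE (adjusted p of limma 0.00438), and the rise passed before balancing too (0.61, adjusted p 0.0169). That both KO libraries lay above the control was a condition for naming these bins, and it held in 90.2% of all bins. The last bin of chromosome 11 (chr11:134000001-135000000) held 32.9% in the control, 40.5% and 45.2% in the KO and 33.4% and 34.2% in the KD libraries. Its log2 change was 0.61 (adjusted p of limma 0.0496), and 0.55 before balancing (adjusted p 0.0265). The bin also held fewer contacts in the KO, at 0.50 and 0.51 of the library's median bin against 0.66 in the control, and the part of this in the result was not tested.

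The remaining bin lay away from any end. In chr5:62000001-63000000 the share was 27.4% in the control, 38.2% and 34.5% in the KO and 27.1% and 27.7% in the KD libraries. The log2 change was 0.59 (adjusted p of limma 0.0496), but the bin's total of contacts fell from 0.86 of the median bin in the control to 0.33 and 0.60 in the KO libraries. Before balancing the KO shares were 26.4% and 28.8% against 25.6% in the control, and the change of 0.15 did not pass (adjusted p 0.405).

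Several called bins lay beside a bin that was measured in some libraries and not in others, which changes what their row can hold. Of 13 such partly measured bins, 3 were measured in the KD libraries alone, on chromosomes 5, 16 and 18. Beside the one on chromosome 16, the bin chr16:34000001-35000000 held 51.4% in the control, 54.3% and 53.6% in the KO and 38.7% and 38.9% in the KD libraries, the lowest 2 of the 5. It was the 1 bin that fell in the KD against the control (log2 change -0.74 ± 0.15 SE, adjusted p of limma 0.00314). With rows summed over the bins measured in all libraries, its share was 51.6% in the control, 55.4% and 55.0% in the KO and 48.7% and 48.96% in the KD libraries, and the change was -0.16 (adjusted p 1.00). Before balancing the change was -0.05. Here and below, signal was not balanced again for the common rows, so any effect of a partly measured bin on the balancing itself was not taken out.

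The same held for part of the difference between KO and KD. In chr18:13000001-14000000 the share was 38.8% in the control, 45.6% and 52.1% in the KO and 31.4% and 31.3% in the KD libraries. This was the largest called difference between KO and KD (log2 1.07, adjusted p of limma 2.28e-14). That p took the SE shared by all bins as known without error, so its size is no measure of the evidence from 2 against 2 libraries. Over the common bins the KD libraries held 38.1% and 37.6%, close to the control, and the difference from the KO was 0.65 (adjusted p 0.000313). Beside the KD-only bin of chromosome 5, chr5:45000001-46000000 differed by 0.84 between KO and KD, and by 0.51 over the common bins. In chr7:63000001-64000000 the neighbouring bin was not measured in the KO. There the share was 34.8% in the control against 43.6% and 50.4% in the KO libraries, and over the common bins 41.6% against 44.8% and 50.4%, so that the log2 change of 0.73 became 0.35 (adjusted p 0.185), and before balancing it was 0.12 (adjusted p 0.520). With rows over the common bins 1 bin rose in the KO against the control (0.0375%), on chromosome 14, and 183 (6.86%) were higher in the KO than in the KD. In relative values 97 bins (3.64%) were then higher and 134 (5.02%) lower between KO and KD.

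Among bins named by their relative change between KO and KD, chromosomes 11 and 18 gave all 5 of the strongest rises. Beside the bins at 134 Mb and 13 Mb given above these were chr18:4000001-5000000 (log2 difference 0.33), chr11:127000001-128000000 (0.26) and chr18:75000001-76000000 (0.24), each with an adjusted p of limma of 0.0339. Of all 114 bins called higher (4.27% of 2667), chromosome 11 held 14 among its 129 bins and chromosome 18 held 21 among its 74. The bins called lower on these chromosomes were 4 and 0. In chr18:4000001-5000000 the share was 30.8% in the control, 37.6% and 41.5% in the KO and 31.0% and 30.7% in the KD libraries. Its contacts dropped from 0.71 of the median bin in the control to 0.38 and 0.36 in the KO, and before balancing the relative difference was -0.07 and did not pass (adjusted p 0.119). The bin chr11:127000001-128000000 turned in the same way, to -0.12 (adjusted p 0.205). The bin at the end of chromosome 11 kept a difference of 0.30 before balancing (adjusted p 0.00367).

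Relative falls in the KO against the KD were led by chr21:47000001-48000000 (log2 difference -0.45), beside a bin measured in the KO libraries alone. Over the common bins its difference was -0.15 and did not pass (adjusted p of limma 0.0747). Falls that passed both in balanced signal and before balancing were those of chr20:14000001-15000000 (-0.26 and -0.35), chr6:134000001-135000000 (-0.24 and -0.14) and chr6:106000001-107000000 (-0.23 and -0.10). In the bin of chromosome 20 the share was 28.0% in the control, 26.6% and 29.8% in the KO and 28.7% and 28.9% in the KD libraries, so that in level the KO libraries lay on both sides of the others. The first bin of chromosome 11 (chr11:1-1000000) fell by 0.24 in balanced signal and was 0.10 higher before balancing, past the threshold both times (adjusted p 0.0339 and 0.0310).

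In the KD against the control, the bin of smallest p among the relative values was chr18:43000001-44000000, which did not pass (log2 change -0.31 ± 0.036 SE, adjusted p of limma 0.796). Its share was 32.0% in the control, 33.2% and 37.5% in the KO and 27.7% and 28.1% in the KD libraries. Both KD libraries lay below the other 3, and before balancing they again did, at 25.7% and 26.5% against 30.3% (control), 32.4% and 36.0% (KO; relative change -0.32, adjusted p 0.131). No neighbour of this bin was partly measured, and its total of contacts was alike in the control (0.75 of the median bin) and the KD libraries (0.73 and 0.76). The bin was picked for the smallest p of 2667, and in relative values both KD libraries lay below the control in 43.7% of all bins.

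Chromosomes differed in their share in a like order in every library. Chromosome 22 led with 36.5% in the control, 37.6% and 41.1% in the KO and 36.3% and 36.9% in the KD libraries. Chromosomes 19, 17 and 16 followed with 33.9%, 32.9% and 31.9% in the control, and these 4 held the same ranks in all 5 libraries. Chromosomes 13 and 4 were lowest with 26.2% and 26.3% in the control and took the last 2 ranks in every library. The control's neighbours in this order were often closer than the SD of 0.362 points between the KD libraries for the whole autosomal share. Chromosome 18 changed its rank most, from 12 in the control and 13 in both KD libraries to 5 and 6 in the KO. Differences between chromosomes made up 13.7% to 14.6% of the variance of the share over bins, and 9.61% to 12.2% before balancing, so that most of the spread lay within chromosomes.

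On all 22 chromosomes both KO libraries lay above the control and both KD libraries, in balanced signal and before balancing. The KO mean exceeded the control by 2.84 points on chromosome 22 at the least and by 5.28 points on chromosome 18 at the most. Before balancing the excess ran from 3.50 points on chromosome 4 to 5.89 on chromosome 19. For the KD libraries the difference from the control lay between 0.0909 and 0.431 points over the chromosomes, and between -0.217 and 0.360 before balancing.

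**Figure D2:**
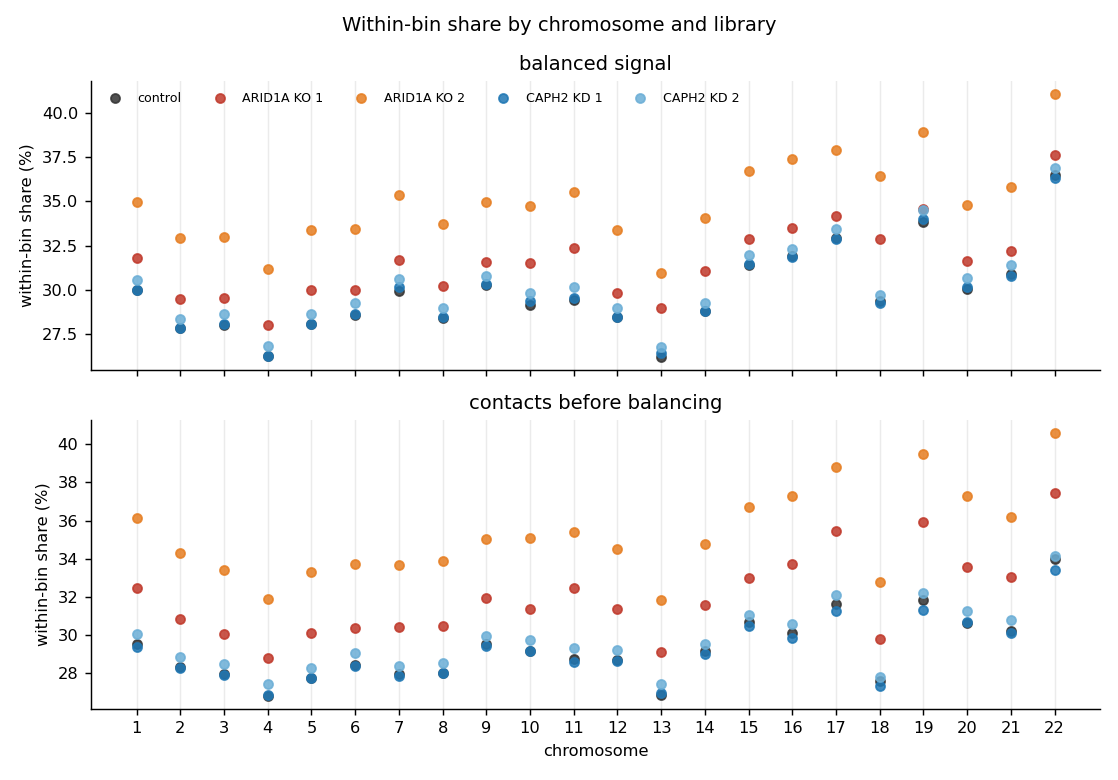
Within-bin share (percent of the summed rows) of each of 22 chromosomes in the 5 libraries, 1 point per library, for balanced signal (top) and contacts before balancing (bottom). Both KO libraries lie above the other 3 on every chromosome, and chromosome 22 is highest in all 5 libraries; chromosome 18 stands at 32.9% and 36.4% in the KO libraries in balanced signal and at 29.8% and 32.8% before balancing.

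Relative to the median chromosome of the library, 2 chromosomes (9.09% of the 22 tested) rose in the KO against the control and 11 (50%) fell in limma's fit, with 0 in the KD against the control in either direction (0 under an unadjusted p of 0.05). In the control this median lay between chromosomes 11 and 18 (0.003 and -0.003), the 2 called as rises, and in the KO libraries between chromosomes 9 and 20. The zero point thus differed between libraries, and the split into rises and falls depends on it. Centred on the library's median bin instead, 12 of the 13 calls stayed and 1 did not pass. Chromosome 18 rose most (log2 change 0.09 ± 0.012 SE, adjusted p 0.00028), and chromosome 11 rose by 0.04 (adjusted p 0.0143). Chromosome 22 fell most (-0.08, adjusted p 0.00028), and chromosomes 19 (-0.08), 17 (-0.06), 9 (-0.06) and 21 (-0.05) followed, then 6, 20, 12, 15, 3 and 1. Before balancing 5 chromosomes (22.7%) rose and 3 (13.6%) fell. Chromosomes 19 and 17 then rose (0.09, adjusted p 0.00265, and 0.07, adjusted p 0.0103), chromosome 22 was at 0.03 and chromosome 18 at -0.03, the last 2 short of the threshold (adjusted p 0.227 and 0.134). Chromosome 11 rose on both scales (0.06 before balancing, adjusted p 0.0259), as chromosomes 3 and 6 fell on both. With the replicate number as a block 9 of the 13 calls in balanced signal passed, without chromosomes 1, 3, 11 and 20 (adjusted p 0.167, 0.0745, 0.0539 and 0.0539). The 13 calls became 16 and 20 without KO replicate 1 and 2, and 3 without either KD library. With trans signal left out of the row 0 passed. Between KO and KD 2 chromosomes were higher and 11 lower (9.09% and 50%), and before balancing 6 (27.3%) and 4 (18.2%).

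The number of contacts per bin differed between the KO and the control on the same chromosomes. On chromosome 18 the mean bin held 0.73 of the library's median bin in the control, 0.49 and 0.48 in the KO and 0.72 in both KD libraries. On chromosome 22 it held 0.73 in the control, 1.05 and 1.02 in the KO and 0.69 and 0.71 in the KD libraries. Over the 22 chromosomes the difference in share between KO and control fell with the log2 ratio of contacts per bin in balanced signal (Pearson r = -0.74) and rose with it before balancing (r = 0.78). Over the 2667 bins the relative change of the 2 KO libraries correlated with the change in the bin's contacts at r = -0.56 and -0.46 in balanced signal, and at 0.62 and 0.70 before balancing. These correlations are descriptions, since bins and chromosomes share libraries and both quantities hold the control and the same rows. The part of contact number in the change of the share was not tested. Between the KD libraries and the control the log2 ratio of a bin's contacts had an SD of 0.063 and 0.030 over bins, against 0.414 and 0.380 for the KO libraries.

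**Figure D3:**
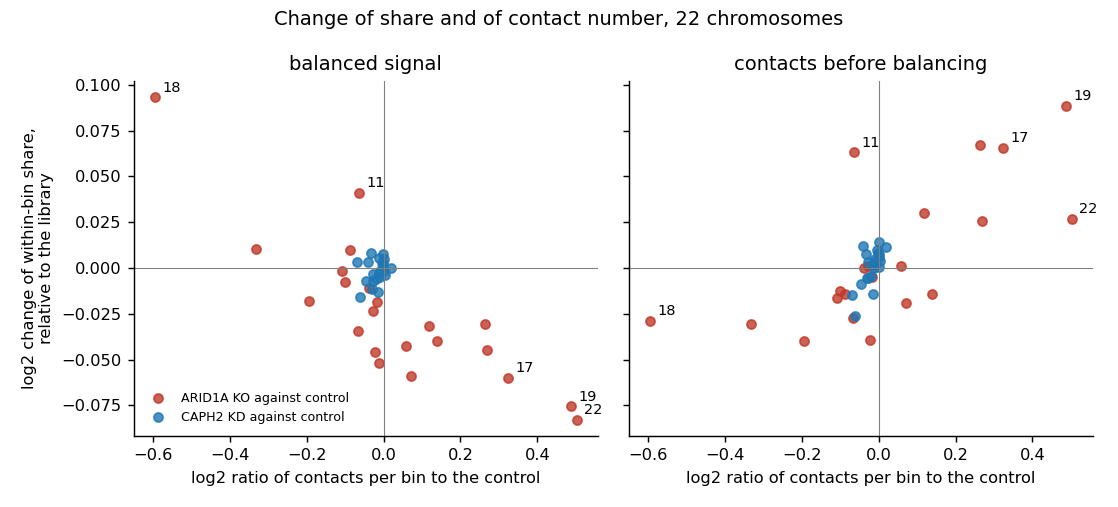
Log2 change of the within-bin share of 22 chromosomes relative to the library, against the log2 ratio of contacts per bin to the control, for the KO (red) and KD (blue) means, in balanced signal (left) and contacts before balancing (right). Chromosome 18 has the lowest contact number in the KO and is the highest point on the left (0.09) and below 0 on the right (-0.03), while chromosomes 17, 19 and 22 lie below 0 on the left and above 0 on the right.

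Bins with a higher trans share of their between-bin signal also held more of their signal within themselves. The trans share was taken of the between-bin signal alone, since shares of a whole row sum to a constant. It also rises where a bin has less cis signal with other bins, so it does not measure trans contacts alone. Across the 2667 bins its Spearman rho with the within-bin share was between 0.52 and 0.57 over the 5 libraries (Pearson r 0.50 to 0.54), and within chromosomes, after each chromosome's median was taken off, also between 0.52 and 0.57. With the trans share of the whole row the relation was weaker, with rho 0.27 to 0.30 and Pearson r 0.16 to 0.20. From the lowest to the highest decile of the control's trans share (decile medians 30.2% and 59.1%), the median within-bin share rose from 25.5% to 34.8% in the control, from 27.4% and 30.7% to 35.8% and 39.5% in the KO and from 25.5% and 26.0% to 34.7% and 35.5% in the KD libraries. All 5 libraries rose at every step of these deciles. Before balancing rho was 0.65 to 0.71. Bins of a library share its depth and its balancing, so no p is given.

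The relation held on most chromosomes taken alone. In the control rho was above 0 on 21 of 22 chromosomes, with a median of 0.68 and the highest value on chromosome 13 (0.87, 96 bins). On chromosome 17 (79 bins) rho lay below 0, between -0.44 and -0.40 over the libraries. Before balancing its rho was 0.53, and all 22 chromosomes were above 0.

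The rise with trans share was less steep in the KO than in the control in balanced signal and steeper before balancing. Relative to the library, the median log2 change of the KO against the control went from 0.01 in the lowest decile to -0.07 in the highest (-0.08 and -0.06 in the 2 libraries). Before balancing it went from -0.11 to 0.09 (-0.10 and 0.09 in each KO library). In the KD the same medians were -0.011 and -0.015 in balanced signal and 0.00066 and -0.025 before balancing. The median contacts of a bin in the lowest decile were 0.97 of the library's median bin in the control and 0.70 in the KO, and in the highest decile 0.87 and 1.21, so contact number moved with this change too. Its part in the result was not tested.

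**Figure D4:**
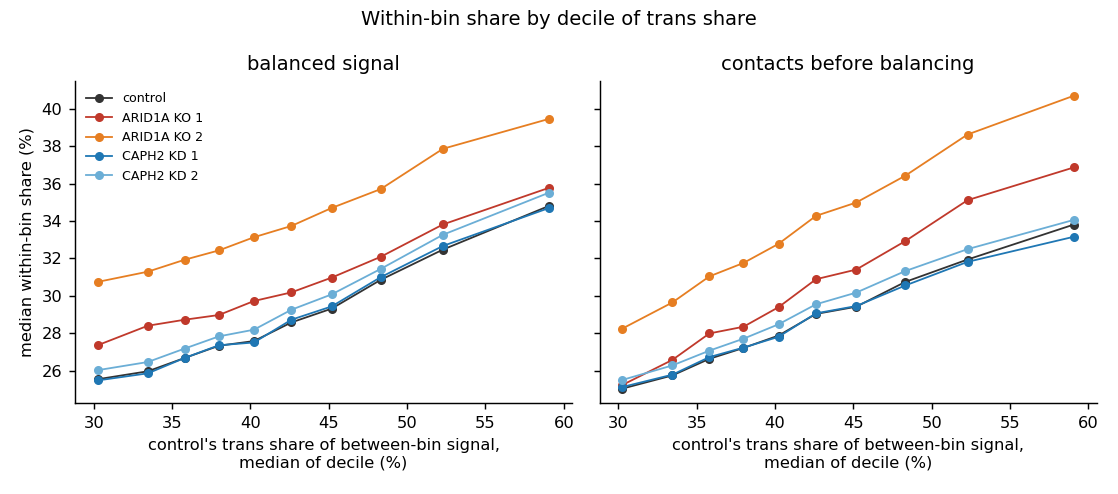
Median within-bin share (percent) of the bins in each decile of the control's trans share of between-bin signal, against the decile's median trans share (percent), 1 line per library, for balanced signal (left) and contacts before balancing (right). All lines rise, from 25.5% to 34.8% in the control in balanced signal, and the KO lines are the steeper on the right.

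Along a chromosome, the share was highest in the end bins in balanced signal. The 44 end bins were the first and last bin of each chromosome measured in all libraries. On chromosomes 13, 14, 15, 21 and 22 the first began at position 11000001 or later, after unmeasured sequence, so it was not the chromosome's end. On chromosomes 13, 16 and 21 a partly measured bin lay beyond the last. The end bins had a median of 38.7% in the control, 40.8% and 45.9% in the KO and 39.2% and 39.3% in the KD libraries. In the control the median fell to 31.3% at 1-4 bins from the end, 29.3% at 5-9, 28.6% at 10-19, 28.1% at 20-49 and 27.3% at 50 or more bins. The other libraries fell in the same order. End bins exceeded their own chromosome's median in 42 of 44 cases in the control, by a median of 10.1 points. They also held fewer contacts, a median of 0.54 of the library's median bin in the control, and some end bins are shorter than 1 Mb of sequence.

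Most of the end bins' excess was absent before balancing. There their median was 29.9% in the control, below the 30.7% of the bins 1-4 from the end, and 28 of 44 exceeded their chromosome's median, by 1.83 points. In the KO libraries the excess before balancing was 3.69 and 4.05 points and in the KD libraries 2.02 and 2.07 points. The fall from 1-4 bins to 50 or more bins from an end remained, from 30.7% to 27.0% in the control, from 34.1% and 37.7% to 28.2% and 31.3% in the KO and from 30.6% and 30.9% to 27.1% and 27.6% in the KD libraries. Before balancing this fall was larger in both KO libraries than in the other 3. Relative to the library, the KO change at 1-4 bins was then 0.11 and at 50 or more bins -0.04, against -0.01 and -0.02 in balanced signal. The trans share followed position as well, with a control median of 58.3% in end bins and 36.4% at 50 or more bins from an end.

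**Figure D5:**
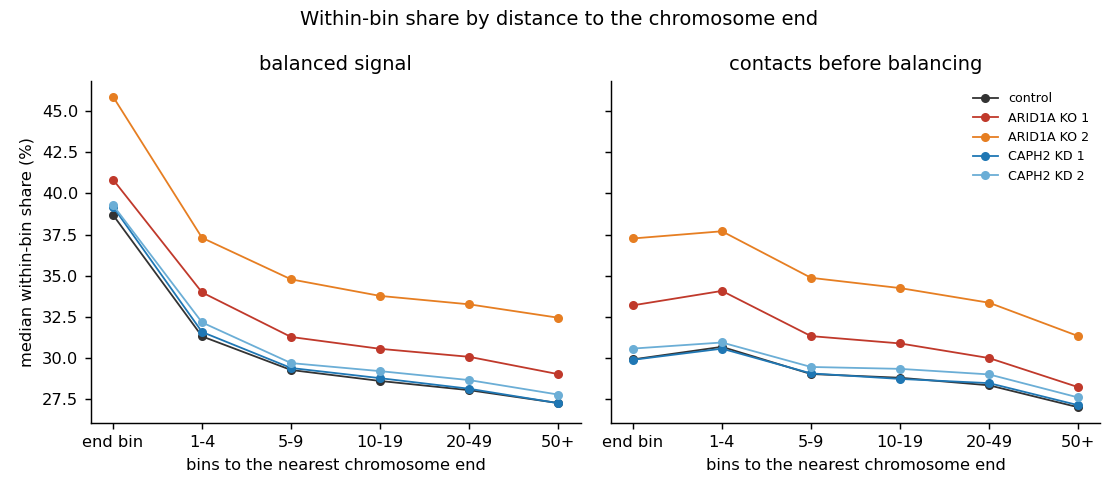
Median within-bin share (percent) by distance in 1 Mb bins to the nearest chromosome end, 1 line per library, for balanced signal (left) and contacts before balancing (right). Ends are the first and last bin of a chromosome measured in all libraries. In balanced signal the end bins stand out (38.7% in the control); before balancing the control's end bins (29.9%) lie near the bins 1-4 from the end (30.7%), and the KO lines fall more steeply towards the interior.

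Bins next to the longest run of unmeasured bins inside a chromosome, which on most chromosomes spans the centromere, resembled end bins in balanced signal. Their median was 37.2% in the control, 40.6% and 45.5% in the KO and 36.8% and 36.7% in the KD libraries (36 bins), against 29.3% in the control at 1-4 bins from the run and 28.0% at 5 or more. Before balancing the same 36 bins had 26.2% in the control, 26.8% and 30.5% in the KO and 26.0% and 26.7% in the KD libraries, below the bins farther away in every library. These bins held a median of 0.39 of the library's median number of contacts in the control.

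The extremes of the control were end bins at the top and a stretch of chromosome 17 at the bottom. The 5 highest were the first and last bins of chromosome 19 (57.8% and 54.2%), the last of chromosome 22 (54.8%), the first of chromosome 1 (54.6%) and the last of chromosome 17 (51.8%), with 0.11 to 0.18 of the median number of contacts. Before balancing the same bins held between 18.6% and 35.7%. At the other end, 4 adjoining bins of chromosome 17 (chr17:52000001-56000000) held 18.03%, 18.3%, 15.9% and 17.5% in the control, with 2.74, 4.04, 4.41 and 4.71 times the contacts of the median bin. In the last of these bins the share was 17.6% and 18.8% in the KO and 17.6% and 17.96% in the KD libraries, so that all 5 libraries were low. Before balancing these 4 bins held 24.3%, 30.4%, 28.9% and 33.5% in the control, which spans the median bin of 28.2%. The fifth was chr4:122000001-123000000 with 18.3% in the control, 20.2% and 23.6% in the KO and 18.4% and 18.9% in the KD libraries, and 21.1% before balancing in the control, low on both scales.

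Over all bins the relation of share and contact number differed between libraries and scales. In balanced signal the Spearman rho of the share with a bin's contacts was -0.53 in the control, -0.64 and -0.58 in the KD and -0.05 and -0.08 in the KO libraries, where it was near 0. Pearson's r with the log2 of the contacts was -0.66 in the control, -0.72 and -0.68 in the KD and -0.28 and -0.30 in the KO libraries. Before balancing rho was -0.02 in the control, -0.14 and -0.07 in the KD and 0.58 and 0.55 in the KO libraries, and r was 0.10, then 0.03 and 0.07, then 0.54 and 0.52. Balanced and unbalanced shares correlated with each other at r = 0.58 to 0.62. Neighbouring bins were alike: the share of a bin and of the next correlated at r = 0.64 to 0.68, and of bins 10 Mb apart at 0.23 to 0.25.

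The bin pattern was shared by all libraries. Between the KD replicates the share correlated at r = 0.995 over bins, between the control and the KD libraries at 0.99, between the KO replicates at 0.96 and between the control and the KO libraries at 0.95 and 0.96. A bin's relative log2 ratio differed between the KD replicates with an SD of 0.0228 and between the KO replicates with 0.0672. The counting error alone gave a median SE of 0.0196 in the control, 0.0240 and 0.0233 in the KO and 0.0182 and 0.0146 in the KD libraries. The SD of the replicate difference was 1.28 times its counting error in the KD and 2.76 times in the KO. This error took each recovered within-bin value as a number of contacts, although these values came in steps of 0.5. If a within-bin contact was entered as 0.5, the counting error is too high and both ratios are too low.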

How the data were processed

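For every library the authors deposited contact signal between all pairs of 1 Mb bins, as a square matrix. The submitters' processing notes name Bowtie2 and hg19. Read filters and the balancing program were not given in the sources used here. From the values, rows were balanced, so signal was used only as shares within a library. Contacts before balancing were recovered by finding, from low trans values, the factor of each bin that makes values whole. A factor off by a whole divisor in all libraries would go unseen.

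The log2 ratio of within-bin to other row signal was tested per bin and per chromosome with limma 3.58.1 (R 4.3.3, lmFit and eBayes). All 3 groups and 5 libraries entered 1 fit, with 2 residual degrees of freedom, no replicate block and Benjamini-Hochberg at 0.05. The prior degrees of freedom were infinite for the bin share, 2.90 for its relative values and 8.56 for chromosomes. A test on simulated data came first. It held relative values with equal independent noise and no shift between replicates, so it did not cover the fit of the bin share. Named bins were the 5 of smallest p per direction among those called with the groups apart, or the 3 of smallest p where none passed, and the control's 5 highest and 5 lowest. After each library's median was taken off, the replicate differences of the KO and of the KD correlated with r = -0.048 over bins. This cannot show a pairing in the level of whole libraries. There replicate 2 lay above replicate 1 in both groups (median shift 0.229 in the KO and 0.037 in the KD), so whether replicate numbers pair is not known. Members and lists were chosen with earlier results of these data known. Alternatives were contacts before balancing, other denominators and filters, leaving out libraries, a replicate block and, chosen after seeing the data, rows over the bins measured in all libraries, within-bin signal counted 2 times and centring on the median bin. No hg19 annotation was used, so genes and sequences are not given.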

Additional observations from a re-analysis of the deposited data

How the results depend on the processing

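The higher within-bin share of the KO kept its direction under every alternative run for the whole autosomal signal (1.81 to 5.18 points above the control when a KO library was left out, 1.51 to 4.87 above the KD when 1 library of either was left out). The KD against the control was 0.0453 to 0.558 points higher with 1 KD library left out, 1.52 with cis signal only and 0.778 with neighbouring bins only. The counts of bins depended on the setting, and the cause was not tested. For the share against the control, 5 bins in the KO and 1 in the KD became 53 and 0 before balancing, 3 and 3 with neighbouring bins only, 0 and 10 with only the groups compared, 1 and 0 with rows over the common bins, 0 and 0 with trend and robust variances, 0 and 0 without end and gap bins, and 0 in the KO without low-total bins. Leaving out a library gave 0 to 2653 in the KO and 0 to 10 in the KD. Between KO and KD the 212 bins became 710 before balancing, 6 with cis signal only, 11 with neighbouring bins only, 6 with trend and robust variances and 2 to 2650 with a library left out: 2650 without KO replicate 1, 1375 without KO replicate 2, 2 without KD replicate 1 and 3 without KD replicate 2. Relative to the library, the 0 bins of the KO against the control became 835 before balancing, 1 with cis signal only, 2 with neighbouring bins only and 0 to 1407 with a library left out. The 0 of the KD became 1, 2 and, with only the groups compared, 19 (0 to 19 with a library left out). The 259 between KO and KD became 1291 before balancing, 3 with cis signal only, 4 with neighbouring bins only and 0 to 1653 with a library left out. The 13 chromosomes of the KO against the control became 8 before balancing, 0 with cis signal only, 4 with neighbouring bins only, 3 with only the groups compared, 6 without low-total bins and 3 to 20 with a library left out. Against the KD the 13 became 0 with cis signal only, 7 with neighbouring bins only, 8 without low-total bins and 2 to 21 with a library left out. Where a library was left out, its group's remaining sample was assumed to vary like the other groups.

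With the replicate block the counts against the control were 3 bins in the KO and 2 in the KD by share, 905 bins by share between KO and KD, 0 in place of the 259 relative bins, and 9 chromosomes in the KO against the control and 12 against the KD in place of 13 each. Before balancing, the KO against the control reversed on chromosomes 1 (0.0297), 12 (0.00102), 17 (0.0655), 18 (-0.0288), 19 (0.0885), 20 (0.0254), 21 (0.00225) and 22 (0.0268). With neighbouring bins only it reversed on chromosomes 1 (0.0308), 9 (0.0079), 12 (0.00103), 15 (0.0305), 17 (0.0717), 18 (-0.0137), 19 (0.0944), 20 (0.0295) and 22 (0.065), and with cis signal only on 19 (0.0435). Between KO and KD the bins chr18:4000001-5000000 (-0.0692), chr11:127000001-128000000 (-0.12) and chr11:1-1000000 (0.10) reversed before balancing. The median rho of share and trans share was 0.66 before balancing against 0.56. Bins under 5 Mb from an end exceeded the others by a median of 5.36 points, 2.58 before balancing, 4.77 without low-total bins and 3.65 without end and gap bins. Depth limits the bins of fewest contacts, where the counting SE of the log2 ratio, taken from within-bin values in steps of 0.5, reached 0.125.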
